A study of Homo sapiens with 42 samples.

Results

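Human HOX gene clusters hold miRNA genes between their protein-coding genes, and 5 mature miRNAs from them were examined here: miR-10a-5p, miR-10b-5p, miR-196a-5p, miR-196b-5p and miR-615-3p. They were taken by name, as miRNAs whose hairpins lie inside the clusters, and they are 5 of the 2657 entries in the count table. Small RNA was sequenced from cytoplasmic and nuclear fractions of HEK293 (an embryonic kidney line), A375 (a melanoma line) and SHSY5Y (a neuroblastoma line), each grown subconfluent or confluent. From HEK293 at both densities, miRNAs were also recovered from an AGO immunoprecipitate (IP), made with the T6B peptide, which binds all human Argonaute proteins. Each of the 14 groups had 3 libraries. All cells were unmodified lines with no treatment other than density, and the labels give no genotype beyond that. HEK293 and A375 grew in DMEM and SHSY5Y in RPMI medium, so medium and line cannot be told apart for SHSY5Y. Each line stands for a single cell source. The labels call the IP libraries biological replicates, and for the fraction libraries nothing states that the replicates were separate cultures, so the p-values on them measure the spread between these libraries, which may be technical. By the labels and the study's account of its miRNA data the IP input was whole cell lysate, although the methods for the T6B purification speak of the cytoplasmic fraction.

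HOX genes encode transcription factors that give cells their position along the body axis, and the miRNA genes among them are often expressed with their neighbours. miR-10 and miR-196 are families whose members sit at matching places in paralogous clusters, and miR-196 represses HOX mRNAs such as HOXB8. A mature miRNA guides Argonaute to mRNAs, mainly through its seed, bases 2 to 8 from the 5′ end, so members with the same seed share most targets. Each hairpin gives a 5p and a 3p strand, of which usually a single strand is retained by Argonaute.

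Hairpin coordinates and neighbouring HOX genes are given by RefSeq on hg38, and host introns and exons by the GENCODE annotation. The MIR10A hairpin lies at chr17:48579838-48579947 on the minus strand, between HOXB4 and HOXB5 in an intron of HOXB3. MIR10B lies at chr2:176150303-176150412 on the plus strand, between HOXD8 and HOXD4 in an intron of HOXD3. miR-196a-5p comes from 2 hairpins, MIR196A1 at chr17:48632490-48632559 (minus strand, between HOXB9 and HOXB13, in a HOXB7 intron) and MIR196A2 at chr12:53991738-53991847 (plus strand, between HOXC10 and HOXC9, in a HOXC6 intron). Their mature strand is a single entry, so the HOXB and HOXC copies cannot be separated in these counts. MIR196B lies at chr7:27169480-27169563 on the minus strand, between HOXA9 and HOXA10, and overlaps an exon of HOXA9 on the same strand. MIR615 lies at chr12:54033950-54034045 on the plus strand, in an intron shared by HOXC5 and HOXC4. The members therefore report on all the HOX clusters, with HOXB and HOXC each represented by more than a single hairpin.

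The mature sequences below are from RefSeq on GRCh38.p14, written 5′ to 3′ with the seed in capitals. They are shown because seed sharing groups the members, because miR-196a-5p and miR-196b-5p are nearly the same sequence, and because the relatives of miR-10 outside the HOX clusters carry another seed.
miR-10a-5p: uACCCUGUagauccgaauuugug
miR-196a-5p: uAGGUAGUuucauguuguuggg
miR-196b-5p: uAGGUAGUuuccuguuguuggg
miR-615-3p: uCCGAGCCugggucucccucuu
miR-615-5p: gGGGGUCCccggugcucggauc
miR-100-5p: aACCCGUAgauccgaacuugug
miR-99a-5p: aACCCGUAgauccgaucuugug
miR-99b-5p: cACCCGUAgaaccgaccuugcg
miR-196a-5p and miR-196b-5p share the seed and all other bases except A12C, counted from 1 at the 5′ end of miR-196a-5p. A read with an error at that base could be given to either member, and how such reads were counted is not given in the sources used here. miR-615-3p shares its seed with none of the other members, and both strands of its hairpin are rich in G and C, which make up 63.6% of the 3p and 77.3% of the 5p strand. miR-99a-5p, miR-99b-5p and miR-100-5p share a seed with each other that differs from that of miR-10a-5p.

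The 34 fraction libraries used held 9817 to 53775 counts (median 23407) and the 6 IP libraries 910753 to 1124959, so a single count is worth far more in a fraction library. The third confluent nuclear libraries of HEK293 and SHSY5Y held 39 and 31 counts and were left out, so these groups have 2 libraries. Levels are given as CPM, counts per 1000000 after TMM scaling (a correction for library composition), computed within the set of libraries compared, so that the same library has slightly different CPM in different comparisons. All fraction libraries of a line were made in a single index pool, so line and pool cannot be told apart. Within a line every fraction library carried its own 3′ adapter, and the same adapters were used in each line. Adapter can therefore not be told apart from fraction or from density in the comparisons within a line. The neural markers miR-9-5p, miR-124-3p and miR-375-3p had their highest median in SHSY5Y and miR-146a-5p, miR-221-3p and miR-222-3p in A375. However, miR-211-5p, a defining miRNA of the melanocyte lineage, was at 0 in 10 of 12 A375 libraries, and miR-204-5p, also of that list, was at 0 in 2 of them. The median of miR-204-5p was higher in HEK293 (248) than in A375 (99.99). These marker levels are counts per 1000000 of the library totals, without TMM scaling. The study's own summary of group means gives 6 of the 14 groups another name than the deposited table: the column named subconfluent cytoplasm in the table is confluent nucleus there, and the reverse, in all 3 lines. The deposited names were used, and the naming touches the comparisons of fraction and of density. Fold changes, tests and strand shares under the other naming are given there for the main changes of call or direction, not for every one. CPM listed by group, shares of all entries called (unless said otherwise) and shares of entries not detected in the IP follow the deposited names. An entry counts here as detected in the IP if it reached 10 counts in 3 or more IP libraries. Entries called not detected can therefore still hold some IP counts. Line comparisons averaged over all 4 groups of a line do not change with it.

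HEK293 held far more of these miRNAs than the other lines. The 5 members together took 5.35% to 8.94% of the counts in the HEK293 fraction groups, against 0.581% to 0.912% in A375 and 0.596% to 0.986% in SHSY5Y (group means). miR-10a-5p alone was among the 6 most abundant entries in every HEK293 fraction group. In these bulk libraries, fewer cells with a miRNA and less of it per cell cannot be told apart.

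miR-10a-5p, the HOXB member of the miR-10 pair, had 20213 to 52075 CPM in the 11 HEK293 libraries (median 33164), 2180 to 11744 in the 12 A375 libraries (median 3755) and 627 to 4434 in the 11 SHSY5Y libraries (median 1409). HEK293 stood above every library of the other lines, whereas A375 and SHSY5Y overlapped. The mean was 7.81 times higher in HEK293 than in A375 and 20.4 times higher than in SHSY5Y. The highest miR-10a-5p level of A375 and of SHSY5Y was in the third subconfluent nuclear library, which carried the same 3′ adapter in both lines: its counts were 191 in A375, against 30 and 47 in the other replicates, and 173 in SHSY5Y, against 41 and 67. The part of the adapter in these values was not tested by itself, and no line call changed with the adapter as a block.

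miR-10b-5p, the HOXD member, followed another order. It had 8635 to 22109 CPM in HEK293 (median 13659), 3526 to 8557 in SHSY5Y (median 5034) and 928 to 3382 in A375 (median 1526). No ranges overlapped, although the highest SHSY5Y and the lowest HEK293 library were close. The mean in HEK293 was 2.79 times that in SHSY5Y and 7.50 times that in A375.

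The pair therefore exchanged rank between the lines, and this can be read within each library, where scaling plays no part. miR-10a-5p made up 70.5% ± 3.08 of the miR-10a-5p and miR-10b-5p counts in HEK293 (SD, n = 11; 67.0% to 76.7%), 68.8% ± 5.69 in A375 (n = 12; 60.5% to 77.6%) and 22.8% ± 8.68 in SHSY5Y (n = 11; 14.2% to 42.3%). Every SHSY5Y library was below every library of the other lines. The difference of SHSY5Y from HEK293 was -47.8 percentage points and that of A375 from SHSY5Y 46.0 points, each with an adjusted p of 0.000147 in a 2-sided permutation test (p = 2e-05, the smallest that 100000 resamples can give; adjustment over 22 pair-share tests). Between A375 and HEK293 the difference was -1.72 points, less than the spread between libraries (adjusted p = 0.522, permutation test).

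**Figure D1:**
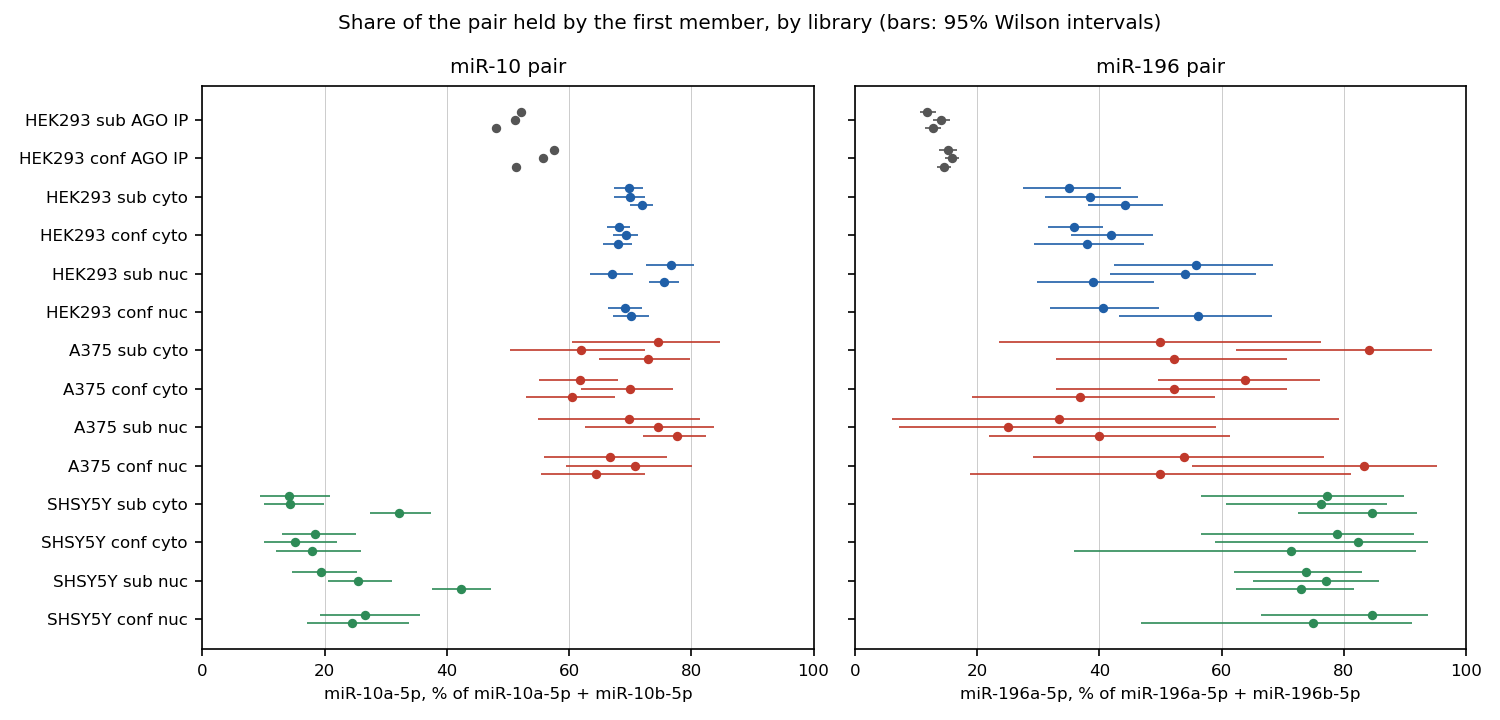
Percent of a pair's counts taken by its first member (miR-10a-5p of the miR-10 pair, miR-196a-5p of the miR-196 pair) in each library, by group, with Wilson 95% intervals as bars; blue is HEK293, red A375, green SHSY5Y and grey the AGO IP. SHSY5Y libraries lie between 14.2% and 42.3% for miR-10a-5p, below all libraries of the other lines, and the IP libraries lie between 11.8% and 15.9% for miR-196a-5p, below all others.

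miR-196a-5p, from HOXB and HOXC, had 1335 to 3758 CPM in HEK293 (median 2057), 215 to 2041 in SHSY5Y (median 828) and 110 to 939 in A375 (median 402). Only A375 was fully below HEK293, and the SHSY5Y range overlapped both. Counts behind these levels were low outside HEK293, at 5 to 57 per SHSY5Y library and 1 to 30 per A375 library. miR-196b-5p, the HOXA member, had 1784 to 6703 CPM in HEK293 (median 2599), 130 to 738 in A375 (median 385) and 85.8 to 685 in SHSY5Y (median 220). HEK293 was above all libraries of both other lines, which overlapped, with 2 to 17 counts per A375 and 2 to 21 per SHSY5Y library.

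Within the pair, miR-196a-5p made up 43.5% ± 7.98 of the counts in HEK293 (SD, n = 11; 35.1% to 56.1%), 52.1% ± 18.1 in A375 (n = 12) and 77.7% ± 4.52 in SHSY5Y (n = 11; 71.4% to 84.6%). SHSY5Y libraries were all above HEK293 libraries, by 34.2 points on average (adjusted p = 0.000147, permutation test, where p = 2e-05 is the smallest possible). They exceeded A375 by 25.6 points (adjusted p = 0.00066, permutation test), but A375 libraries ran from 25% to 84.2% and overlapped them, with few counts each. The difference of 8.53 points between A375 and HEK293 did not pass (adjusted p = 0.307, permutation test). In SHSY5Y, the HOXD member of the miR-10 pair and the HOXB/HOXC member of the miR-196 pair were thus the more abundant, and HOXB miR-10a-5p and HOXA miR-196b-5p the less abundant.

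miR-615-3p, from the HOXC5 intron, had 3361 to 6548 CPM in HEK293 (median 4178), 155 to 1347 in A375 (median 626) and 397 to 1076 in SHSY5Y (median 521). HEK293 was above every other library and the other lines overlapped closely, with means of 665 ± 376 (SD, n = 12) and 645 ± 247 (n = 11).

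**Figure D2:**
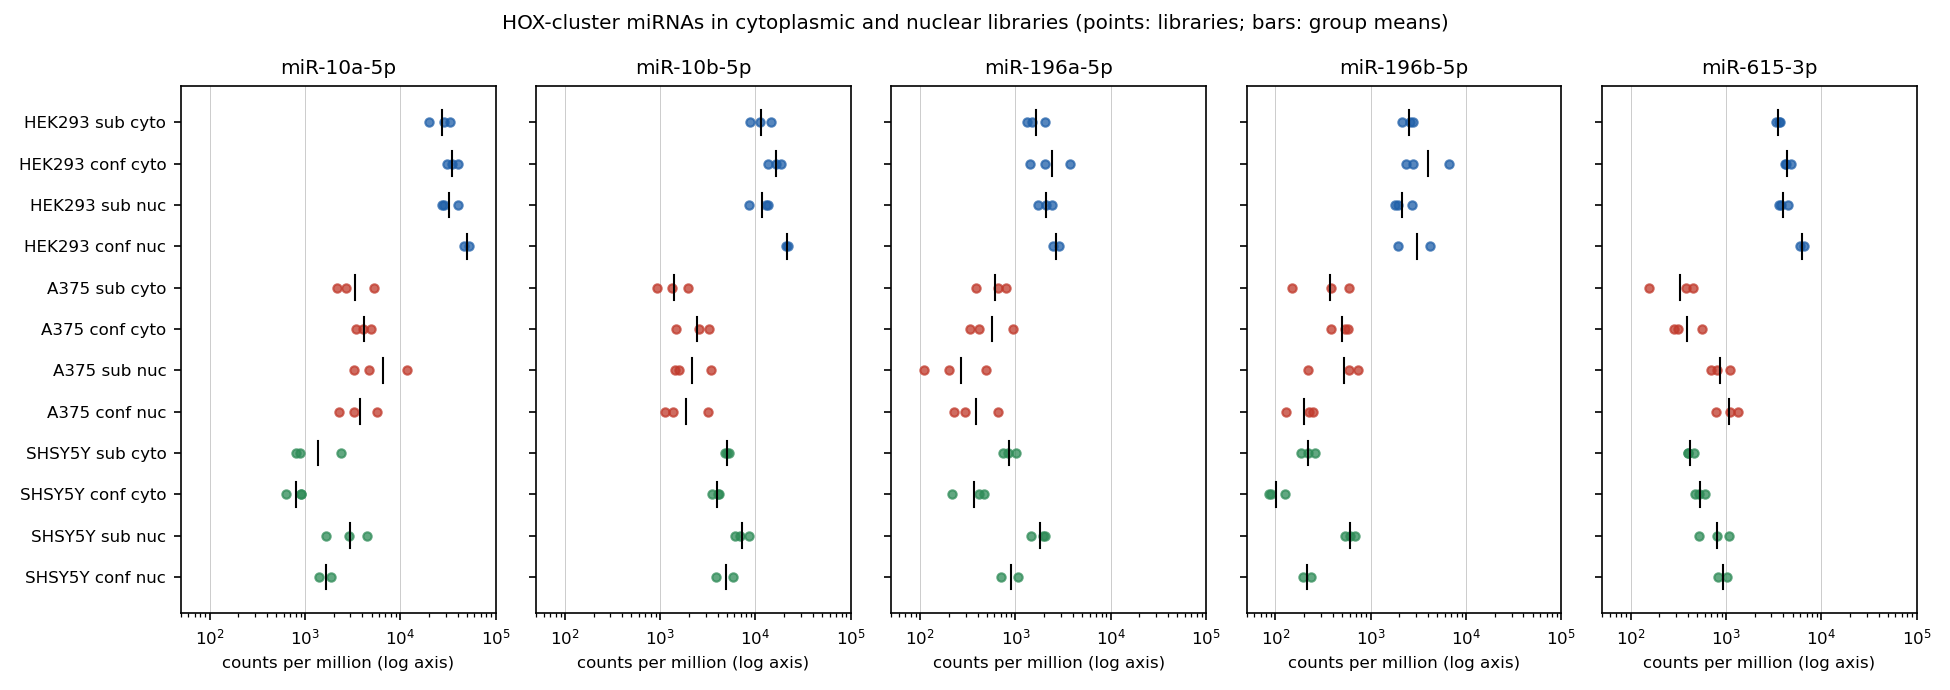
CPM (log axis) of the 5 members in the 34 fraction libraries by group; points are libraries, bars are group means, blue is HEK293, red A375 and green SHSY5Y. HEK293 lies highest in every panel, and the order of A375 and SHSY5Y changes from miR-10a-5p (medians 3755 and 1409) to miR-10b-5p (1526 and 5034).

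In the edgeR fit over all 34 fraction libraries, with each line averaged over its 4 groups, all 5 members were lower in A375 than in HEK293, where 32.6% of the 478 entries tested were lower and 65.9% differed in either direction. The log2 fold change was -3.03 ± 0.20 (SE) for miR-10a-5p, -2.93 ± 0.18 for miR-10b-5p, -2.24 ± 0.23 for miR-196a-5p, -2.89 ± 0.23 for miR-196b-5p and -2.89 ± 0.17 for miR-615-3p, with edgeR adjusted p of at most 6.90e-12. The median over all entries tested was 0.03. All 5 were also lower in SHSY5Y than in HEK293, where 33.1% of entries were and 70.9% differed in either direction: -4.52 ± 0.24 for miR-10a-5p, -1.53 ± 0.17 for miR-10b-5p, -1.33 ± 0.21 for miR-196a-5p, -3.59 ± 0.24 for miR-196b-5p and -2.78 ± 0.17 for miR-615-3p (edgeR adjusted p of at most 3.20e-07). These 10 calls held under every alternative run and with each single library left out.

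Between A375 and SHSY5Y, 4 of 5 members passed, where 55.6% of entries did, and they split within each pair. miR-10a-5p was higher in A375 (log2 fold change 1.49 ± 0.21, edgeR adjusted p = 1.01e-07) and miR-10b-5p lower (-1.40 ± 0.18, edgeR adjusted p = 3.98e-09). miR-196a-5p was lower in A375 (-0.91 ± 0.24, edgeR adjusted p = 0.00157) and miR-196b-5p higher (0.70 ± 0.29, edgeR adjusted p = 0.0395), while miR-615-3p did not pass (-0.11 ± 0.19, edgeR adjusted p = 0.637). By the deposited names, the miR-196 calls rested on particular fractions. miR-196a-5p differed by 0.073 in the cytoplasm alone (edgeR adjusted p = 0.862) and by -1.90 in the nucleus alone. miR-196b-5p differed by 1.49 in the cytoplasm and -0.088 in the nucleus. Line differences within a fraction were not tested under the other naming, so this split by fraction is not settled. The miR-196b-5p call was also lost in 14 of 34 fits that left out a single library, at values between 0.57 and 0.73. Under the alternatives other than leaving out a library, miR-196b-5p passed in only 6 of 10.

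miR-99a-5p, miR-99b-5p and miR-100-5p are relatives of miR-10 encoded outside the HOX clusters, and they did not share the pattern. miR-100-5p was highest in A375, with 32564 to 74104 CPM (median 39075), against 1073 to 6087 in SHSY5Y (median 2000) and 0 to 653 in HEK293 (median 127). The lines did not overlap. The log2 fold change of A375 over HEK293 was 8.38 ± 0.27 (edgeR adjusted p = 3.58e-29), of opposite direction to miR-10a-5p. miR-99a-5p was higher than in HEK293 in A375 (0.93, edgeR adjusted p = 0.000188) and in SHSY5Y (0.67, edgeR adjusted p = 0.00552), with medians of 2412, 4441 and 3526 CPM in HEK293, A375 and SHSY5Y, and miR-99b-5p passed only between A375 and SHSY5Y (0.60, edgeR adjusted p = 0.00602).

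Over the 12 fraction group means, the entries whose log2 CPM ran most closely with each member were described by Pearson's r, among 459 entries with a mean of at least 100 CPM. For miR-10a-5p these were miR-196b-5p (r = 0.964), miR-194-5p (0.960) and miR-4787-3p (0.930), and miR-10a-5p was in turn the closest to miR-196b-5p. For miR-10b-5p they were miR-421 (0.977), miR-130b-3p (0.945) and miR-374b-5p (0.944), and for miR-196a-5p miR-126-3p (0.950), miR-340-5p (0.947) and miR-130b-3p (0.933). miR-196b-5p was followed by miR-378a-3p (0.951) and miR-378a-5p (0.946), and miR-615-3p by miR-1180-3p (0.923), miR-1296-5p (0.918) and miR-504-5p (0.907). The 4 group means of a line share its pool and cells, so the 12 points mainly trace the 3 lines.

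The study also asked where miRNAs lie in the cell. In SHSY5Y all 5 members had higher CPM in the nucleus than in the cytoplasm, where 33.9% of 348 entries were higher and 71.3% differed. miR-196a-5p had 713, 749 and 812 CPM in subconfluent and 444, 442 and 242 in confluent cytoplasm, against 1912, 1759 and 1296 in subconfluent and 1152 and 716 in confluent nuclei. Only the confluent nuclear library of 716 fell within the cytoplasmic range. Its log2 fold change was 1.20 ± 0.26 (edgeR adjusted p = 0.000128), and those of the others were 1.10 ± 0.27 for miR-10a-5p (0.000525), 0.42 ± 0.19 for miR-10b-5p (0.0435), 1.28 ± 0.45 for miR-196b-5p (0.0115) and 0.90 ± 0.27 for miR-615-3p (0.00362), with the edgeR adjusted p in parentheses.

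The composition of the libraries also differed between the fractions, and its part in these differences was not tested by itself. Entries not detected in the AGO IP took 49.1% ± 17.7 of the counts of SHSY5Y cytoplasmic libraries (SD, n = 6) and 17.5% ± 9.59 of nuclear ones (n = 5). The entries that were detected in the IP had a median log2 fold change of 0.81 between nucleus and cytoplasm, against 0.02 over all entries tested. Scaled and tested among IP-detected entries only, none of the 5 members passed, with log2 fold changes of 0.27, -0.39, 0.39, 0.50 and 0.11 in the order miR-10a-5p, miR-10b-5p, miR-196a-5p, miR-196b-5p and miR-615-3p. Under the other naming of the columns, miR-196a-5p (0.87) and miR-196b-5p (1.07) still passed, whereas miR-10a-5p (0.60) and miR-10b-5p (0.26) did not, and miR-615-3p was at -0.46. Only 1 of the 5 passed without confluent nucleus replicate 2, 2 without confluent cytoplasm replicate 3, and 3 without confluent cytoplasm replicate 2 or subconfluent nucleus replicate 1 or 2. Without any of the 3 subconfluent nucleus libraries miR-196b-5p fell under the count minimum, so only 4 members were tested there. The miR-10b-5p call was lost when any of 8 of the 11 libraries was left out, at values between 0.08 and 0.36. Under the alternatives other than leaving out a library, miR-10b-5p passed in 0 of 10, at values between -0.39 and 0.54.

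In HEK293, miR-10a-5p and miR-615-3p were higher in the nucleus, 2 of 5 members where 18.8% of 345 entries were and 53.9% differed. miR-615-3p had 4134, 3708 and 3833 CPM in subconfluent and 4657, 4271 and 4683 in confluent cytoplasm, against 4745, 5415 and 3876 in subconfluent and 6209 and 8614 in confluent nuclei. The ranges overlapped through a single nuclear library, and the log2 fold change was 0.48 ± 0.18 (edgeR adjusted p = 0.0311). For miR-10a-5p it was 0.50 ± 0.17 (edgeR adjusted p = 0.0183), with 22301 to 39196 CPM in the cytoplasm and 33919 to 68508 in the nucleus. The other members had log2 fold changes of 0.36 for miR-10b-5p, 0.38 for miR-196a-5p and -0.17 for miR-196b-5p, with edgeR adjusted p of 0.0992, 0.198 and 0.600. Here too, the entries not detected in the IP took 28.4% ± 9.49 of cytoplasmic counts (n = 6) and 9.38% ± 2.65 of nuclear counts (n = 5), and the log2 fold changes among IP-detected entries only were -0.0045 for miR-10a-5p and -0.026 for miR-615-3p. With the replicate block miR-10a-5p passed at 0.54 (edgeR adjusted p = 0.0223) and miR-615-3p did not at 0.46 (edgeR adjusted p = 0.0704). Both calls were also lost with library totals (0.27 for miR-10a-5p and 0.25 for miR-615-3p), with no filter (0.30 and 0.29), in subconfluent cells alone (0.32 and 0.26) and in confluent cells alone (0.68 and 0.70, edgeR adjusted p = 0.0534 and 0.0604). Both calls were lost without confluent cytoplasm replicate 2 (0.41 for both) or confluent nucleus replicate 2 (0.37 and 0.36), the miR-615-3p call also without subconfluent nucleus replicate 2 (0.42), and both had the opposite sign under the other naming (-0.46 and -0.44, not past the threshold), where miR-10b-5p was called lower in the nucleus (-0.65, edgeR adjusted p = 0.0185).

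A375 had a single member past the threshold, miR-615-3p, where 7.55% of 265 entries were higher in the nucleus and 21.5% differed. Its cytoplasmic libraries had 154, 407 and 376 CPM when subconfluent and 288, 455 and 270 when confluent, and its nuclear ones 1005, 679 and 715 when subconfluent and 807, 1055 and 1295 when confluent. All nuclear libraries were above all cytoplasmic ones, although from 2 to 19 counts each. The call held among IP-detected entries (log2 fold change 1.5, edgeR adjusted p = 0.0118) and with each library left out. It was lost with no filter (1.34, edgeR adjusted p = 0.0681) and in subconfluent cells alone (1.26, edgeR adjusted p = 0.0965), the member was not tested with a minimum of 50 counts, and under the other naming of the columns the value was -0.23. Entries not detected in the IP took 24.4% ± 6.15 of the A375 cytoplasmic and 22.9% ± 14.0 of the nuclear counts (SD, n = 6 each). The other members had values between -0.78 (miR-196a-5p) and 0.42 (miR-10a-5p), none past the threshold.

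The opposite strand of the MIR615 hairpin was distributed otherwise. miR-615-5p had 256 counts over the 6 SHSY5Y cytoplasmic libraries against 90 for miR-615-3p, so that the 3p strand was 26.3% ± 5.27 of both strands (SD, n = 6; 19.2% to 30.8%). In SHSY5Y nuclei the 3p strand held 104 counts against 39, or 74.9% ± 12.2 (n = 5; 57.1% to 86.7%), and the fractions did not overlap. In HEK293 the 3p strand was 81.5% ± 8.84 in the cytoplasm (n = 6) and 94.3% ± 3.01 in the nucleus (n = 5), in A375 61.7% ± 22.9 and 82.8% ± 11.2 (n = 6 each), and in the AGO IP 99.5% ± 0.22 (n = 6). Under the other naming of the columns the order of the fractions turned in 2 of the lines: the 3p share was 52.6% ± 30.3 in the cytoplasm (n = 5) and 44.9% ± 25.8 in the nucleus (n = 6) of SHSY5Y, 92.2% ± 4.0 and 83.3% ± 10.9 in HEK293 (n = 5 and 6), and 65.1% ± 15.8 and 79.3% ± 23.3 in A375 (n = 6 each). Which fraction held the larger 3p share in HEK293 and SHSY5Y therefore depends on the naming, whereas the share in the IP does not. The strand shares were chosen after the values were seen and are given as a description. Between lines, miR-615-5p was lower in A375 than in HEK293 (log2 fold change -1.04 ± 0.32, edgeR adjusted p = 0.00449) and did not pass in SHSY5Y against HEK293 (0.27, edgeR adjusted p = 0.441), where miR-615-3p was at -2.78.

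**Figure D3:**
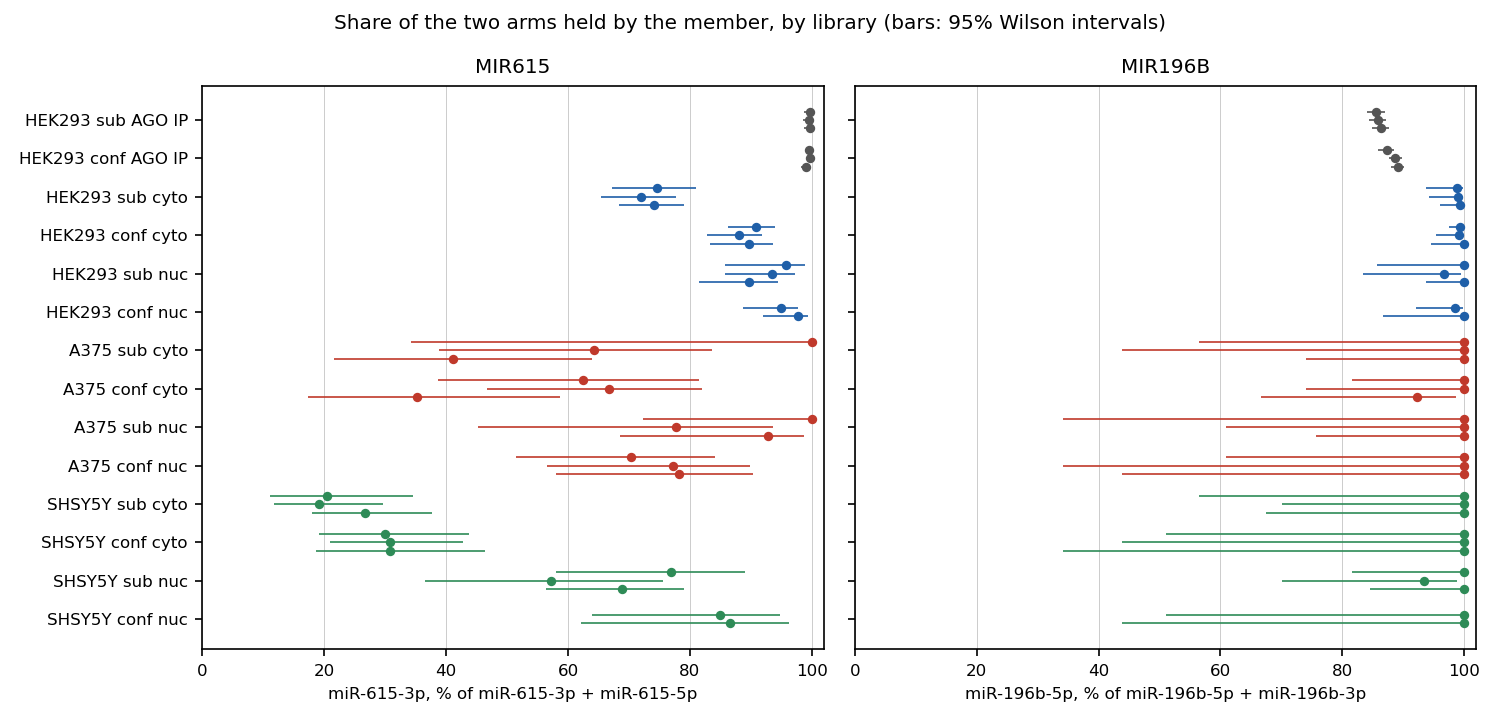
Percent of a hairpin's counts on the member's strand in each library (miR-615-3p of MIR615, miR-196b-5p of MIR196B), by group, with Wilson 95% intervals as bars. By the deposited names, the 3p share of MIR615 runs from 19.2% to 30.8% in SHSY5Y cytoplasm and is near 99.5% in the AGO IP, whereas the 5p share of MIR196B is lowest in the IP, with a mean of 87.1%.

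The main question of the study was the effect of confluency. In the fractions it was tested 6 times per member, and 1 of the 30 tests passed. That was miR-196a-5p in SHSY5Y cytoplasm, lower in confluent cells by the 444, 442 and 242 CPM against 713, 749 and 812 given above, with no overlap (log2 fold change -0.97 ± 0.35, edgeR adjusted p = 0.0182), in a comparison where 25.3% of 348 entries were lower and 58.9% changed. It was lost without confluent cytoplasm replicate 3 (-0.80, edgeR adjusted p = 0.0780), with DESeq2 (-0.88, adjusted p = 0.0605), with no filter (-1.07, edgeR adjusted p = 0.152) and among IP-detected entries only (-0.30, edgeR adjusted p = 0.514), and it was not tested with a minimum of 50 counts. Among IP-detected entries miR-615-3p was called higher instead (1.23, edgeR adjusted p = 0.00838, against 0.57 over all entries, which did not pass). The miR-196a-5p call held with the replicate block (-1.03) and with library totals (-1.19), and was -1.29 (edgeR adjusted p = 0.0111) under the other naming of the columns. Entries not detected in the IP took 33.4% ± 5.32 of counts in subconfluent and 64.9% ± 3.04 in confluent SHSY5Y cytoplasm (n = 3 each).

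In HEK293 cytoplasm, where 28.4% of entries changed, the members had log2 fold changes between 0.22 (miR-615-3p) and 0.55 (miR-196b-5p), none past the threshold. In HEK293 nuclei, where only 1.16% of entries changed, they ranged from 0.35 (miR-196a-5p) to 0.87 (miR-10b-5p, edgeR adjusted p = 0.125), and 3 had an unadjusted p under 0.05 by edgeR. miR-10b-5p had 10860, 16696 and 13866 CPM in subconfluent nuclei and 21799 and 29086 in confluent ones, without overlap. Under the other naming miR-10a-5p, miR-10b-5p, miR-196a-5p and miR-615-3p had the opposite sign in both HEK293 fractions, none past the threshold. In that order the values were -0.68, -0.59, -0.33 and -0.70 in the cytoplasm. In the nucleus they were -0.32, -0.13, -0.43 and -0.26. In A375 the log2 fold changes ran from -0.21 to 0.67 in the cytoplasm and from -1.28 (miR-196b-5p) to 0.46 in the nucleus, where 28.3% and 24.9% of entries changed and no member did. In SHSY5Y nuclei, where 39.9% of entries changed, miR-196b-5p was at -1.30 (edgeR adjusted p = 0.0832), miR-196a-5p at -0.77 (0.0978) and miR-615-3p at 0.35. Under the other naming, 4 members were called lower in confluent SHSY5Y nuclei, including miR-615-3p (-1.01, edgeR adjusted p = 0.0122), and miR-615-3p was called lower in confluent A375 cytoplasm (-1.58, edgeR adjusted p = 0.0217). The share of all entries called in these comparisons under that naming is not given here, so the number of members is not read further. Of simulated 2-fold changes with confluency, 30.9% to 65.1% were recovered in the fractions, so a change of that size could often not be detected at this depth.

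Whether these responses differed between lines or fractions was tested as interactions. The confluency effect in the cytoplasm differed between the lines for miR-196a-5p alone among the members (edgeR adjusted p = 0.0331, where 37.9% of 478 entries passed), and in the nucleus for no member, where 8.16% of entries passed and 3 members had an unadjusted p under 0.05. The difference between nucleus and cytoplasm varied between the lines for miR-196a-5p (edgeR adjusted p = 0.00596, where 31% of entries passed). These tests also depend on the naming of the columns. With the other naming, chosen for them after seeing the data, the cytoplasmic test of miR-196a-5p did not pass (edgeR adjusted p = 0.106), where 127 of 478 entries passed. The test of localization passed for miR-196a-5p (0.0091), miR-196b-5p (0.00734), miR-10b-5p (0.0176) and miR-10a-5p (0.0284), with the edgeR adjusted p in parentheses. There 169 of 478 entries passed. For no member did the confluency effect differ past the threshold between nucleus and cytoplasm, in HEK293 (4.06% of entries passed), A375 (14.7%) or SHSY5Y (1.44%), and no unadjusted p was under 0.05.

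**Figure D4:**
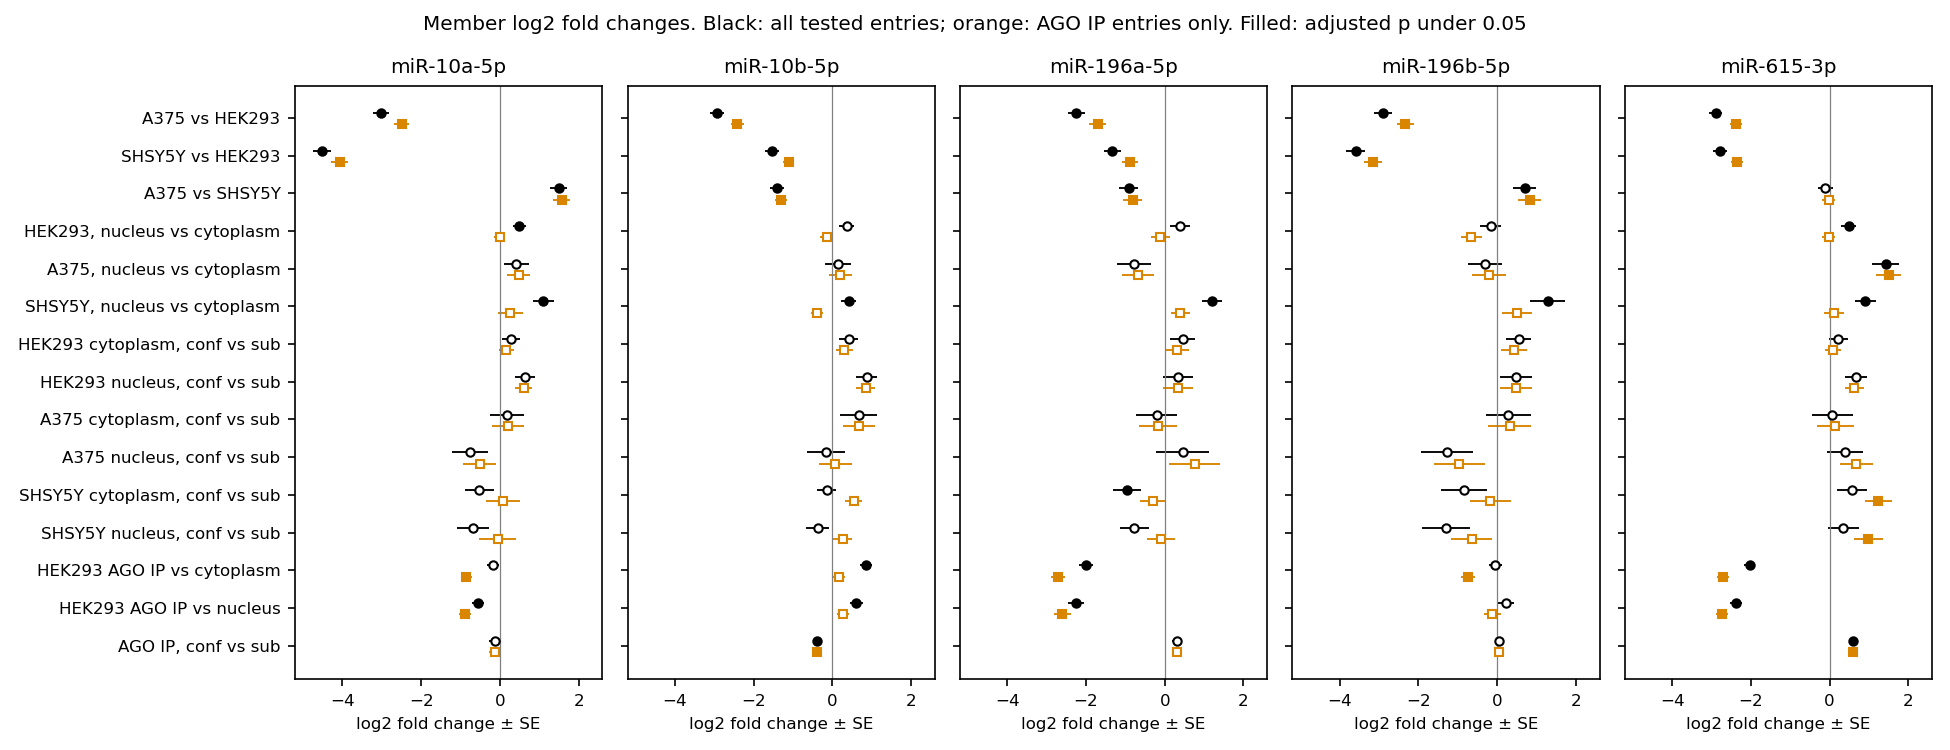
Log2 fold change ± SE of the 5 members in the 15 edgeR comparisons; black points are fits over all tested entries, orange points fits over entries detected in the AGO IP, and filled points have an adjusted p under 0.05. The line comparisons with HEK293 lie below 0 in all panels, and the SHSY5Y nucleus points of the orange series lie between -0.39 and 0.50.

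The AGO IP was sequenced far more deeply, and there the members moved apart. miR-615-3p had 617, 567 and 596 CPM in the subconfluent and 943, 900 and 838 in the confluent IP, without overlap. It was higher in the confluent IP with a log2 fold change of 0.59 ± 0.09 (edgeR adjusted p = 0.00122). miR-10b-5p had 23802, 19378 and 20481 CPM against 17792, 14747 and 16194, again without overlap, and was lower (-0.39 ± 0.11, edgeR adjusted p = 0.0268). These were 2 of 5 members, where 35.2% of 537 entries changed. Its partner miR-10a-5p had 25960, 20274 and 18970 CPM against 24066, 18571 and 17117 and did not pass (-0.13 ± 0.16, edgeR adjusted p = 0.562). miR-196a-5p had 298, 374 and 324 CPM against 383, 449 and 406, every confluent library above every subconfluent one (0.31 ± 0.12, edgeR adjusted p = 0.0691), and miR-196b-5p hardly moved, with 2222, 2285 and 2216 against 2144, 2380 and 2388 (0.04 ± 0.08, edgeR adjusted p = 0.749).

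Same-numbered IP libraries shared a 3′ adapter and deviated together, and with a block for that number 4 of 5 members passed: miR-10a-5p (-0.13, edgeR adjusted p = 0.0017) and miR-196a-5p (0.31, edgeR adjusted p = 0.00111) were added, in a fit that called 56.1% of entries on 2 residual degrees of freedom. The miR-10b-5p call without the block was lost when subconfluent replicate 1 (-0.30) or 3 (-0.41) or confluent replicate 2 (-0.33) or 3 (-0.38) was left out. The subconfluent and confluent IP libraries were made in separate index pools, so density and pool cannot be told apart. Within libraries, miR-10a-5p was 50.5% ± 2.12 of its pair in the subconfluent and 54.9% ± 3.14 in the confluent IP, and miR-196a-5p 12.9% ± 1.12 and 15.2% ± 0.66 of its pair (n = 3 each). By replicate number, from subconfluent to confluent IP, the miR-10a-5p share went from 52.2% to 57.5%, from 51.1% to 55.7% and from 48.1% to 51.4%, higher in the confluent IP in 3 of 3 pairs by 4.41 points ± 1.03 (SD). The miR-196a-5p share went from 11.8% to 15.2%, from 14.1% to 15.9% and from 12.8% to 14.5%, also higher in 3 of 3 pairs, by 2.30 points ± 0.89. An exact paired permutation test, added after seeing the data, gave p = 0.25 for both, the smallest that 3 pairs allow. Unpaired, 3 against 3 libraries cannot reach a p below 0.1 in the exact permutation test (p = 0.2 and 0.1).

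Compared with the HEK293 fractions, the IP held less miR-196a-5p and miR-615-3p. miR-615-3p had 718 to 1169 CPM in the 6 IP libraries, 3490 to 4532 in the 6 cytoplasmic and 3333 to 7207 in the 5 nuclear ones. Its log2 fold change was -2.03 ± 0.14 against cytoplasm (edgeR adjusted p = 2.38e-14) and -2.38 ± 0.15 against nucleus (edgeR adjusted p = 2.60e-14). miR-196a-5p had 398 to 583 CPM in the IP, 1386 to 3150 in the cytoplasm and 1581 to 2713 in the nucleus, with -2.01 ± 0.18 and -2.26 ± 0.21 (edgeR adjusted p = 9.73e-12 and 6.70e-11). Neither member's IP libraries overlapped the fractions. Both kept their direction and call under all 6 alternatives, between -3.04 and -1.56 for miR-196a-5p and between -3.05 and -1.57 for miR-615-3p against cytoplasm.

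For miR-10a-5p, miR-10b-5p and miR-196b-5p the comparison depended on the scaling. Between IP and cytoplasm 73.5% of the 694 entries tested passed, and between IP and nucleus 57.6%. IP and fraction libraries came from separate index pools, so pool and IP cannot be told apart. Against cytoplasm, miR-10b-5p was higher in the IP (0.85, edgeR adjusted p = 4.35e-06), but at 0.24 with library totals, 0.11 with DESeq2 and 0.17 among IP-detected entries it did not pass. miR-196b-5p was at -0.04 (edgeR adjusted p = 0.843), but was called lower at -0.66, -0.78 and -0.74 in the same 3 settings. miR-10a-5p was at -0.17 against cytoplasm (edgeR adjusted p = 0.292) and at -0.55 against nucleus (edgeR adjusted p = 0.00284). Against cytoplasm it passed in 5 of 6 alternatives, at values between -1.20 and 0.28, and with library totals it was called lower, at -0.78. Against nucleus, miR-10b-5p was called higher in the IP (0.61, edgeR adjusted p = 0.00125) and passed in 2 of 6 alternatives.

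The shares within a pair do not depend on scaling. miR-196a-5p was 14.0% ± 1.51 of its pair in the IP (SD, n = 6; 11.8% to 15.9%) and 43.5% ± 7.98 in the HEK293 fractions (n = 11), without overlap (exact 2-sided permutation test, p = 0.000162, adjusted p = 0.00066). miR-10a-5p was 52.7% ± 3.41 of its pair in the IP (48.1% to 57.5%) and 70.5% ± 3.08 in the fractions, also without overlap (exact permutation test, p = 0.000162, adjusted p = 0.00066). The members that differ by a single base outside the seed, miR-196a-5p and miR-196b-5p, were thus recovered at different ratios in the IP and in the fractions.

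The other entries from the HOX clusters covered a wide range of differences between IP and cytoplasm. The opposite strands miR-10a-3p (log2 fold change -0.022, edgeR adjusted p = 0.919) and miR-10b-3p (-0.22, edgeR adjusted p = 0.441) did not pass, and miR-196a-1-3p was lower in the IP (-1.80, edgeR adjusted p = 0.00118). miR-196b-3p, the opposite strand of miR-196b-5p, had 2038 counts over the IP libraries, or 333 CPM of the library totals, and 6 counts over the HEK293 cytoplasmic libraries, or 28.6 CPM, 11.7 times less. The member strand miR-196b-5p held 87.1% ± 1.5 of the MIR196B counts in the IP (n = 6) and 99.3% ± 0.41 in the cytoplasm (n = 6). The log2 fold change of miR-196b-3p was 4.13 ± 0.36 against cytoplasm (edgeR adjusted p = 5.92e-12). In contrast, miR-615-5p had 23 counts in the IP (3.76 CPM of the library totals) and 220 in the cytoplasm (1047 CPM of the library totals), 279 times more. Its log2 fold change was -7.38 ± 0.27 (edgeR adjusted p = 1.43e-21). miR-7704, which overlaps a HOXD1 exon, had 402 counts in HEK293 cytoplasm, 35 in the nucleus and 0 in the IP, where a floor of 3 counts over the 6 libraries makes it at least 3904-fold lower than in the cytoplasm and at least 959-fold lower than in the nucleus. miR-3185, in the HOXB cluster, had 11 counts in the cytoplasm and 0 in the IP, at least 107-fold lower by the same floor. These bounds cover only the counting error of the 0 counts in the IP. The fraction counts behind them are taken as observed, and for miR-3185 these are only 11 in the cytoplasm. Under the other naming, cytoplasm and nucleus held 211 and 226 counts of miR-7704, 65 and 178 of miR-615-5p and 5 and 9 of miR-3185, so the IP stayed lowest for these entries while the order of the fractions depends on the naming.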

How the data were processed

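Small RNA libraries were made by ligation of a 3′ adapter with an index and a 5′ adapter with random bases, and per the labels and methods the authors trimmed reads with cutadapt, mapped them with Bowtie2 and counted them with bedtools on hg38; the versions of Bowtie2 and bedtools and the counting of reads shared by similar entries are not given in the sources used here. The deposited table holds raw counts, whole numbers per mature miRNA and library, with no normalization by the authors. Of its 2657 entries, 2367 (89.1%) matched a RefSeq name.

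The quasi-likelihood test of edgeR 4.0.16 in R 4.3.3 was applied after TMM scaling to entries that reached 10 counts in 3 or more of the libraries fitted, with Benjamini-Hochberg adjustment over all of them and a threshold of 0.05. One fit held the 34 fraction libraries, others each line, the 6 IP libraries, and the 17 HEK293 libraries. Pair shares were compared with 2-sided permutation tests in scipy 1.17.1, exact where a group had fewer than 10 libraries and with 100000 resamples otherwise. Wilson 95% intervals cover counting error only. DESeq2 1.42.0 and other scalings, filters, entry sets, column names and replicate blocks were tried as alternatives. For the interactions, the strand shares and the counts of other HOX-cluster entries the other column names, and for the IP pair shares a paired test, were added after seeing the data. Same-numbered IP libraries carried a common 3′ adapter, and how they deviated from their group mean was correlated in each of 3 pairs (r = 0.58, 0.34 and 0.39). Fraction libraries of different lines with the same adapter also had a positive r in every pair. It was 0.12 to 0.33 for A375 and SHSY5Y, 0.06 to 0.24 for HEK293 and A375, and 0.07 to 0.37 for HEK293 and SHSY5Y. In contrast, numbers within a line did not pair densities. Scripts were tested on simulated data: 2-fold changes were recovered in 86.2% to 92.9% of cases for the line comparisons, 65.0% to 85.4% for localization and 81.2% for the IP densities.

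Named are the 5 members, the opposite strands of their hairpins, other entries inside the HOX clusters, miR-99a-5p, miR-99b-5p and miR-100-5p, and the 3 entries most correlated with each member. The members and lists were chosen with earlier results of these data known.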

Additional observations from a re-analysis of the deposited data

Results flagged for a closer look

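miR-196a-5p drew attention because its response differed between the lines by a test of the difference itself. In the cytoplasm, its log2 fold change from subconfluent to confluent cells was lower than in HEK293 by -0.67 in A375 and by -1.76 in SHSY5Y, and the interaction in the edgeR fit of the 34 fraction libraries had an adjusted p of 0.0331, where 37.9% of 478 entries passed. Each line's own fit gave 0.45, -0.21 and -0.97 for the lines HEK293, A375 and SHSY5Y. The other members did not pass this test, with miR-10b-5p next (edgeR adjusted p = 0.101). With the other naming of the columns the differences from HEK293 were 0.73 in A375 and -1.11 in SHSY5Y, and the test did not pass (edgeR adjusted p = 0.106).

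The difference between nucleus and cytoplasm of miR-196a-5p also differed between the lines (edgeR adjusted p = 0.00596, where 31% of entries passed). It was lower than in HEK293 by -1.06 in A375 and higher by 0.91 in SHSY5Y, and each line's own fit gave 0.38, -0.78 and 1.20 for HEK293, A375 and SHSY5Y. Among entries detected in the AGO IP the same values were -0.11, -0.67 and 0.39, and the interaction was not tested in that set. miR-196b-5p and miR-615-3p missed the threshold narrowly (edgeR adjusted p = 0.05004 and 0.0531). With the other naming, the differences of miR-196a-5p from HEK293 were 0.35 in A375 and 1.56 in SHSY5Y (edgeR adjusted p = 0.0091), where 169 of 478 entries passed. miR-10a-5p (0.0284), miR-10b-5p (0.0176) and miR-196b-5p (0.00734) passed as well, and miR-615-3p was at 0.788. A375 libraries held 1 to 30 counts of miR-196a-5p.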

How the results depend on the processing

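Of 597 values of the members under alternatives other than leaving out a library, 518 kept their direction and side of the threshold, 46 lost and 18 gained a call and 15 reversed; of 1211 with a library left out, 1163 kept both, 39 lost and 9 gained a call. Signs also changed between values that passed in neither setting, 35 and 18 times. Reversed between A375 and SHSY5Y, by the deposited names, were miR-196a-5p (0.073, cytoplasm only) and miR-196b-5p (-0.088, nucleus only). For IP against cytoplasm, miR-196b-5p was 0.40 with no filter and miR-10b-5p -0.17 with a minimum of 50 counts. For nucleus against cytoplasm, IP-detected entries gave -0.0045 (miR-10a-5p) and -0.026 (miR-615-3p) in HEK293 and -0.39 (miR-10b-5p) in SHSY5Y, where the minimum of 50 gave -0.26. With the other naming of the columns, HEK293 nucleus against cytoplasm was -0.46 (miR-10a-5p), -0.65 (miR-10b-5p) and -0.44 (miR-615-3p), and miR-615-3p was -0.23 in A375 and -0.46 in SHSY5Y nuclei, -1.58 with confluency in A375 cytoplasm and -1.01 in SHSY5Y nuclei. The cause was not tested.

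Members called with confluency in the IP rose from 2 to 4 with the replicate block, which paired same-numbered libraries, and the fit called 301 in place of 189 entries. HEK293 nucleus against cytoplasm fell from 2 members to 0 (library totals, no filter, IP-detected entries, either density alone) or 1 (minimum of 50, replicate block, near-empty libraries kept, other naming). A375 fell from 1 to 0 (no filter, minimum of 50, other naming, subconfluent only). SHSY5Y fell from 5 to 2 (no filter, other naming, confluent only) or 0 (minimum of 50, where only the miR-10 pair was tested, and IP-detected entries). No alternative kept all 5 calls there, because miR-10b-5p passed in 0 of 10. With confluency, A375 cytoplasm rose from 0 to 1 (other naming), SHSY5Y cytoplasm went from 1 to 0 (DESeq2, no filter, minimum of 50) or 2 (other naming), and SHSY5Y nuclei from 0 to 1 (IP-detected entries) or 4 (other naming). Except for the IP with the replicate block, the shares of all entries called in these settings are not given here. The same holds with a library left out, so these member counts are not read further. With the replicate block, miR-10b-5p also lost its call between nucleus and cytoplasm in SHSY5Y. The paired test of IP pair shares, with a smallest possible p of 0.25, could not pass. Of the interactions of miR-196a-5p between lines, the cytoplasmic one was lost (edgeR adjusted p = 0.106) and the localization one kept (0.0091) with the other naming.

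With each library left out, members called ranged from 5 to 5 in both comparisons with HEK293, 3 to 4 for A375 against SHSY5Y, 1 to 2 for the IP densities, 3 to 4 and 4 to 4 for IP against cytoplasm and nucleus, 0 to 3, 1 to 1 and 1 to 5 for nucleus against cytoplasm in HEK293, A375 and SHSY5Y (4 members tested without any subconfluent SHSY5Y nuclear library), 0 to 1 and 0 to 0 for confluency in HEK293 cytoplasm and nucleus, 0 to 0 and 0 to 1 in A375, and 0 to 2 and 0 to 1 in SHSY5Y. No pair-share call was lost; 2 were gained, miR-10 with confluency in A375 (-8.19 points without subconfluent cytoplasm replicate 2) and with localization in SHSY5Y (11.7 points without subconfluent cytoplasm replicate 3). With at least 20 pair counts, 20 tests gave the same calls and 2 could not be computed. Depth limits miR-196a-5p, miR-196b-5p and miR-615-3p most in A375 and SHSY5Y, where the minimum of 50 counts removed them.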
